A study of Mus musculus with 18 samples.

Results

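The nuclear-encoded genes of the mitochondrial respiratory chain and ATP synthase were followed in naive CD4 T cells of mice with gain or loss of the miR-232724 microRNA cluster. The members were chosen by symbol: every gene beginning with Ndufa, Ndufb, Ndufc, Ndufs, Ndufv, Uqcr, Cox4i, Cox5, Cox6, Cox7, Cox8 or Atp5, together with Sdha, Sdhb, Sdhc, Sdhd, Cycs and Cyc1. The rule found 94 of 23951 genes in the table, of which 86 reached 1 RPKM in at least 3 libraries and were tested. RPKM is a read count scaled to transcript length and library size, so levels are compared per length. The symbols also bring in 7 complex I assembly factors (Ndufaf) and the pair Atp5s and Atp5sl, which are not subunits, leaving 85 genes of the chain proper. Without the pair of libraries described below, the median member stayed within 0.10 of wild type on the log2 scale, and 18 of 86 members were called, beside 29.1% of all tested genes, in T cells carrying the whole cluster, with the largest called falls in the complex I subunits Ndufa3 and Ndufs4. With all libraries 0 of 86 were called there, beside 8.48% of all tested genes.

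There were 6 genotypes with 3 libraries each, all from C57BL/6 mice. Each was set against wild-type mice (WT). Cluster Tg mice had T cell-restricted over-expression of the entire cluster. In miR-23 Tg, miR-24 Tg or miR-27 Tg mice only the named family member was raised in T cells. DKO mice lacked both the a and the b cluster in T cells. The sources used here do not give the promoter of the transgenes or the Cre line of the deletion. CD4+CD25-CD62Lhi cells were sorted by flow cytometry, RNA was prepared with the small RNAs kept, and TruSeq libraries were sequenced on an Illumina HiSeq. Whether each library is its own animal is not stated in the labels, and p-values therefore cover the spread of these libraries alone, which may be partly technical. In the header 2 miR-23 Tg columns carry the same replicate name, and they are called columns 3 and 4 here. Of 10118 genes reaching 1 RPKM in both columns, 0 had the same value.

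Complex I passes electrons from NADH, and complex II from succinate, to ubiquinone. Complex III hands them through cytochrome c to complex IV, which reduces oxygen, and the proton gradient built on the way drives ATP synthesis by complex V. The core of complex I carries out the electron transfer and proton pumping, while its accessory subunits are needed for assembly and stability. Naive T cells are quiescent and rely largely on this oxidative metabolism, and they build more mitochondria when activated. A microRNA pairs through its seed, bases 2 to 8, with sites mainly in the 3′ untranslated region of a messenger RNA and lowers its level or translation.

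The mature sequences of the cluster's arms, with the seed in capitals, show what the members' messages would have to match (RefSeq, GRCm38.p6, chr8:84208563-84208583, chr8:84208875-84208896 and chr8:84208727-84208747, plus strand). The seeds of miR-23 and miR-27 both open with UCACA.
mmu-miR-23a-3p: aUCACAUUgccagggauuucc
mmu-miR-24-3p: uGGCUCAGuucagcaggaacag
mmu-miR-27a-3p: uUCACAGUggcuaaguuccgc
A match to the seed reads AATGTGA for miR-23, CTGAGCC for miR-24 and ACTGTGA for miR-27. The members' 3′ untranslated regions were short, with a median of 219 nt against 1139 nt over all tested genes with one. A miR-23 match stood in 4 of 86 members (4.65%, against 16.2% of all tested genes), a miR-24 match in 7 (8.14% against 18.996%) and a miR-27 match in 7 (8.14% against 17.0%). In all, 16 of 86 members held at least 1 of the matches.

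Respiratory chain genes were among the more abundant and more even messages of these cells. Over 16 libraries, without the pair described below, the median member stood at 66.1 RPKM and the median tested gene at 16.1 RPKM. The median coefficient of variation over those libraries was 11.4% for members and 15.6% for all tested genes. Among the steadiest was Atp5b, the catalytic beta subunit of ATP synthase (4.95%). Members were also short: their median transcript length was 713.5 nt against 1982 nt, and 70.9% of them were under 1000 nt against 23.1%.

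Over all listed genes, tested or not, complex V had the highest median level (146.0 RPKM), followed by complex III (92.8) and complex II (74.7). Next came the accessory subunits of complex I (62.0), complex IV (55.1) and the core of complex I (47.5). The place of complex IV depends on its untested tissue forms, as 13 of its 18 genes were tested. The middle value of those 13 was that of Cox5a, at 98.5 RPKM. The Ndufaf assembly factors lay far lower, at a median of 7.80 RPKM. The most abundant member was Atp5e, the epsilon subunit of ATP synthase, at a mean of 458.5 RPKM, followed by Atp5b at 409.8 RPKM and Cox4i1 of complex IV at 392 RPKM. Uqcrh, the hinge protein of complex III, stood at 345 RPKM and Atp5k, the e subunit of complex V, at 308 RPKM. In complex II the flavoprotein Sdha and the iron-sulfur subunit Sdhb stood at 98.6 and 92.3 RPKM, and the membrane anchors Sdhc and Sdhd at 57.1 and 55.1 RPKM. Within complex I the core subunit Ndufs7 stood at 77.8 RPKM, and the highest accessory subunits were Ndufa3 (211.3 RPKM) and Ndufa4 (185.5 RPKM), a protein now assigned to complex IV.

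**Figure D1:**
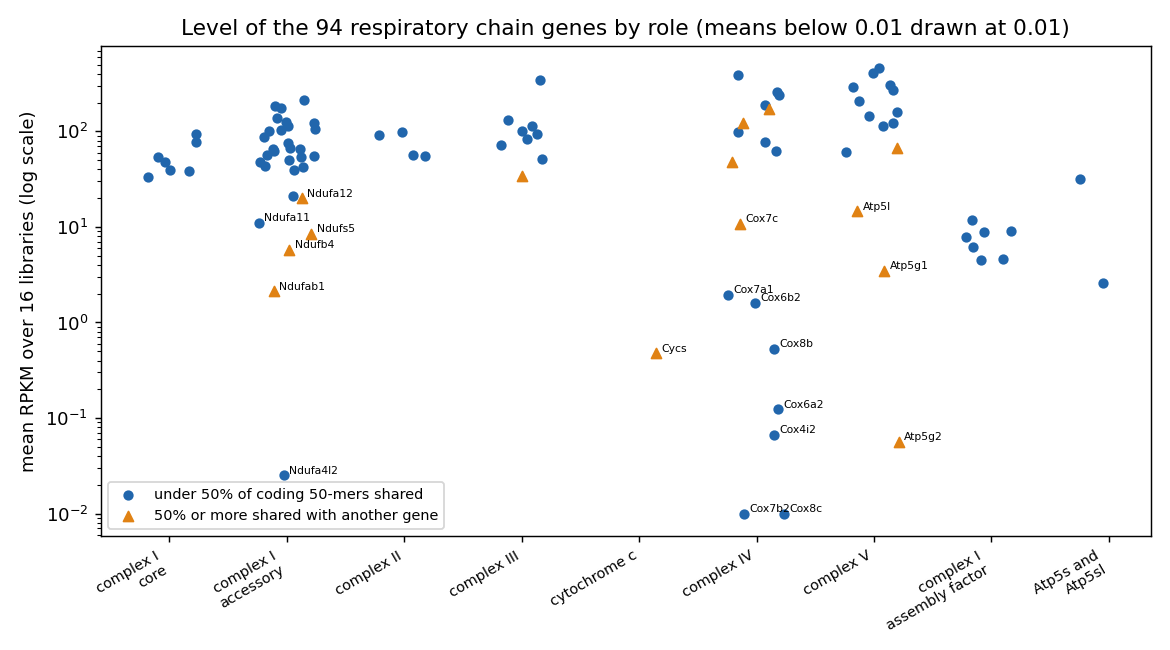
Each point is the mean RPKM of 1 gene over 16 libraries, on a log scale, by complex or role; triangles are genes of which 50% or more of the coding 50-mers also occur in another gene. Complex V has the highest median, the assembly factors and Atp5s lie low, and the labelled points in complexes I, IV and V and cytochrome c are members under 20 RPKM.

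The tissue forms split clearly. Cox4i1 stood at 392 RPKM and its hypoxia- and lung-associated partner Cox4i2 at 0.0672 RPKM. Cox6a1, the general form, had 257.1 RPKM and the muscle form Cox6a2 had 0.123 RPKM. Cox6b1 had 240.5 RPKM and the testis form Cox6b2 had 1.62 RPKM. Cox8a had 190.0 RPKM, the muscle form Cox8b had 0.530 RPKM, and the testis form Cox8c was listed at 0 in all 18 libraries. Cox7a2l, a factor that joins complexes III and IV and of which C57BL/6 mice are known to carry a short form, stood at 170.0 RPKM, Cox7a2 at 78.4 RPKM and the muscle form Cox7a1 at 1.96 RPKM. Ndufa4 had 185.5 RPKM and Ndufa4l2, a hypoxia-induced relative, 0.0251 RPKM. Of the genes for the c subunit of ATP synthase, Atp5g3 had 272 RPKM, Atp5g1 had 3.47 RPKM and Atp5g2 had 0.0558 RPKM.

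Some low values belong to genes whose sequence is repeated elsewhere, and these levels are uncertain because the sources used here do not say how the authors counted reads shared between genes. Cycs, cytochrome c itself, stood at only 0.475 RPKM, and 100% of its coding 50-mers also occur in other genes, 10 of them pseudogenes. Among 14 subunit genes with 50% or more of their 50-mers shared, the median was 12.7 RPKM and 9 lay under 20 RPKM, among them Cycs, Atp5g1, Atp5g2, Ndufab1, Ndufb4, Cox7c and Atp5l. Of 47 genes with no shared 50-mer, 8 lay under 20 RPKM, all of them tissue-restricted or inducible forms such as Cox7a1, Cox8b and Ndufa4l2. Cox7a2l shares 53.7% with 1 pseudogene, while Ndufa3, Ndufs4, Ndufc2 and Cox4i1 share none.

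Ndufs5, an accessory subunit of complex I, was the most uneven of the tested members, with a coefficient of variation of 68.8% over the 16 libraries. It lay between 9.89 and 16.1 RPKM in 12 of 18 libraries, including all WT and DKO ones. In the other libraries it was at 0.0287 and 0.00420 RPKM in cluster Tg replicates 1 and 2, at 0.163 in miR-23 Tg column 4, at 0.713 in miR-24 Tg replicate 3, and at 1.48 and 0.00163 in miR-27 Tg replicates 1 and 3. The drop thus appeared within genotypes, and the gene was called in no comparison. It shares 72.1% of its coding 50-mers with a pseudogene, and the part of that sharing in the drop was not tested.

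Before the comparisons, 2 libraries have to be set apart. In miR-27 Tg replicate 3 the members summed to 31195 RPKM and in DKO replicate 3 to 14828 RPKM, against 7222 to 9046 RPKM in the other 16 libraries. The median member lay 1.53 above the WT mean on the log2(RPKM + 1) scale in the former and 0.690 above it in the latter, with 84 of 86 members above the WT mean in each. In the other libraries this median lay between -0.18 and 0.08. The rise was not confined to the respiratory chain and differed with transcript length. In miR-27 Tg replicate 3 the median of all tested protein-coding genes was 0.740 above WT for transcripts under 750 nt. It was -0.569 for those of 3000 nt or more. In DKO replicate 3 these medians were 0.304 and -0.287. Members rose more than all coding genes of their length. Under 750 nt the member medians were 1.83 in miR-27 Tg replicate 3 and 0.778 in DKO replicate 3. From 750 to 1500 nt they were 1.27 and 0.605, against 0.702 and 0.329 for all coding genes. The reason for this excess was not tested. Cytosolic ribosomal protein genes, also short, summed to 136321 and 89945 RPKM there against 22563 to 50492 RPKM elsewhere. Every comparison is therefore given with all 18 libraries and with the other 16. Relative depth, read from low values with WT replicate 1 at 1, was 0.634 in miR-27 Tg replicate 3 and otherwise 0.912 to 1.467, and absolute depth is unknown.

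**Figure D2:**
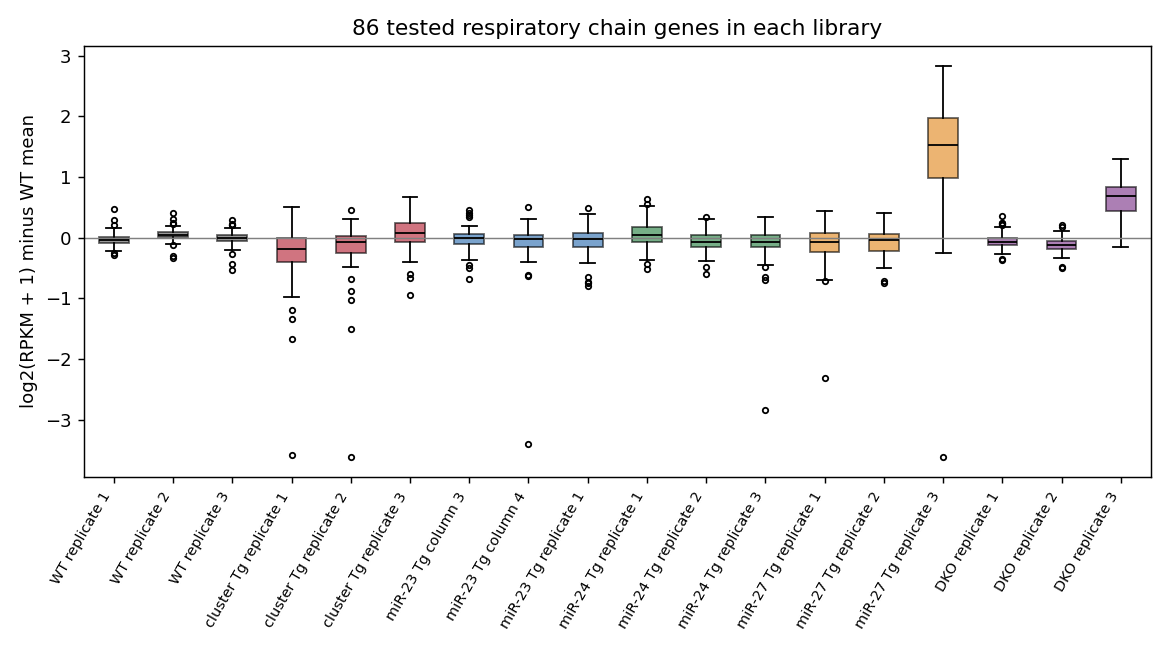
Boxes show, for each library, the 86 tested members as log2(RPKM + 1) minus the WT mean (box, quartiles; line, median; whiskers, up to 1.5 times the box length; circles, members beyond). The box of miR-27 Tg replicate 3 is centred at 1.53 and that of DKO replicate 3 at 0.690, while the other medians lie between -0.18 and 0.08.

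With all 18 libraries almost no member passed the test. By limma with Benjamini-Hochberg adjustment over 11099 genes, 0 of 86 members were called at an adjusted p under 0.05 in cluster Tg against WT, where 8.48% of all tested genes were called. The counts were also 0 of 86 in miR-23 Tg (0.045% of all genes), miR-24 Tg (3.59%), miR-27 Tg (8.95%) and DKO (0% of all genes). At an unadjusted p under 0.05 these comparisons had 5, 0, 0, 6 and 0 members. In cluster Tg against DKO, 1 of 86 was called (11.3% of all genes), Ndufa3 at -1.59 ± 0.48 (SE). A moderated F test for any difference between the 6 genotypes called 0 of 86 (19% of all genes), with 5 members at an unadjusted p under 0.05. The median standard error of a member was 0.353 on the log2 scale with 18 libraries and 0.09998 with 16.

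With 16 libraries, 18 of 86 members were called in cluster Tg against WT, where 29.1% of all genes were called. Of these, 5 were higher (15.6% of all genes) and 13 lower (13.5% of all genes). In miR-23 Tg 2 of 86 were called (3.89% of all genes), 0 higher (1.96%) and 2 lower (1.94%). In miR-24 Tg 4 of 86 were called (17.5%), 1 higher (9.38%) and 3 lower (8.07%). In miR-27 Tg 10 of 86 were called (20% of all genes), 1 higher (11.4%) and 9 lower (8.58%). In DKO 0 of 86 were called (0.018%), with 3 members at an unadjusted p under 0.05. The F test called 23 of 86, under the share of all genes (50.9%). Shares of called members thus lay below or near those of all genes, and the members are described one by one.

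As a set the members shifted little once the pair was left out. The median log2 fold change of the members against WT was -0.08 in cluster Tg, -0.03 in miR-23 Tg, -0.05 in miR-24 Tg, -0.04 in miR-27 Tg and -0.10 in DKO, where the median of all tested genes lay within 0.01 of 0 each time. With all 18 libraries the miR-27 Tg median was 0.47, with 79 of 86 members above 0, and the DKO median was 0.16, with 82 above 0. Without the pair 39 and 13 of 86 members were above 0 in these comparisons. The direction of the set in miR-27 Tg and DKO thus turned with 1 library each. The comparisons share the WT libraries. Within cluster Tg the median member differed between libraries, at -0.18, -0.08 and 0.08 from the WT mean in replicates 1 to 3. The part of this spread in the changes of single genes was not tested.

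**Figure D3:**
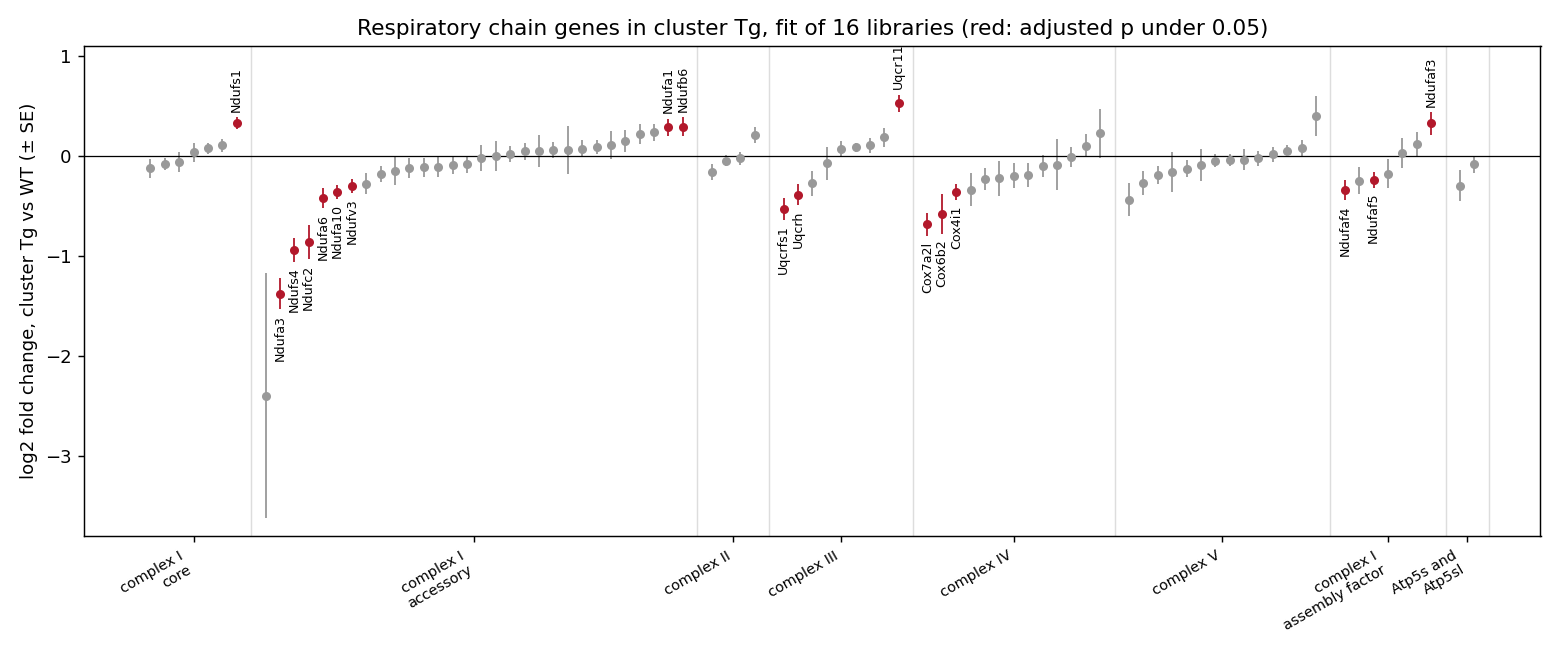
Points are log2 fold changes of the 86 tested members in cluster Tg against WT, with standard errors, grouped by role and ordered within each; red points have an adjusted p under 0.05 in the fit of 16 libraries. The largest called fall is that of Ndufa3 (-1.38), the largest called rise that of Uqcr11 (0.53), and complexes II and V hold no called member. Of all tested genes 29.1% were called. The lowest point, uncalled, is Ndufs5.

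The largest called falls in cluster Tg were those of 3 accessory subunits of complex I, Ndufa3, Ndufs4 and Ndufc2, while the median accessory subunit was at -0.05 and the median complex IV gene at -0.20. Ndufs4, a subunit near the NADH-oxidising end whose loss causes Leigh-like disease, was at 23.9, 27.0 and 27.4 RPKM in WT replicates 1 to 3. It was at 10.9, 12.2 and 16.9 RPKM in cluster Tg, and at 15.3, 15.9 and 16.5 RPKM in the miR-23 Tg libraries. None of these 6 transgenic libraries overlapped WT. Its log2 fold change was -0.94 ± 0.12 (SE, n = 3 against 3; limma adjusted p = 0.000201) in cluster Tg and -0.68 ± 0.12 (adjusted p = 0.0160) in miR-23 Tg. It stood at 26.1 to 29.2 RPKM in miR-24 Tg, at 25.9 and 24.5 RPKM in DKO replicates 1 and 2, and at 20.4 and 22.3 RPKM in miR-27 Tg replicates 1 and 2. The libraries set apart had 89.5 and 50.7 RPKM. The F test gave an adjusted p of 0.000222 for any difference between genotypes, while miR-23 Tg against miR-24 Tg was not tested. With 18 libraries the cluster Tg fold change was the same and its adjusted p was 0.22. The miR-23 Tg call was lost when miR-23 Tg replicate 1 or column 4, or WT replicate 2, was left out, with only the libraries compared (adjusted p = 0.0574) and with a replicate block (adjusted p = 0.0611).

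Ndufa3, a small accessory subunit of the membrane arm, showed the largest called change. It was at 251.5, 302.3 and 266.0 RPKM in WT and at 84.5, 94.7 and 141.4 RPKM in cluster Tg, with no overlap. The log2 fold change was -1.38 ± 0.16 (SE; adjusted p = 0.000105), and with 18 libraries the adjusted p was 0.101. The miR-23 Tg libraries had 173.2 to 193.3 RPKM, all below WT, with a fold change of -0.59 and an adjusted p of 0.0609, which missed the threshold. In miR-27 Tg replicates 1 and 2 it was at 167.2 and 162.6 RPKM (-0.72 ± 0.18, adjusted p = 0.0143), and in replicate 3 at 848.1 RPKM. The miR-24 Tg libraries, at 253.9 to 327.2 RPKM, overlapped WT.

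Both genes hold miR-23 matches in their 3′ untranslated regions, shown here with the match in capitals because they were the members with the largest called losses. Sites are given on the transcript's strand in GRCm38 with GENCODE vM21 models, at chr7:3620133-3620155 (plus) for Ndufa3, and at chr13:114288653-114288675 and chr13:114288509-114288531 (minus) for Ndufs4. Ndufs4 also holds a miR-27 match at chr13:114288722-114288744 (minus).
Ndufa3, miR-23: ccaataaaAATGTGAaaactaat
Ndufs4, miR-23, the first: tcctaataAATGTGAcctttaaa
Ndufs4, miR-23, the second: agtttaccAATGTGAgtgcctgg
Ndufs4, miR-27: tctgcttgACTGTGActgaagtg
Of the other members with a miR-23 match, Uqcrfs1 fell in cluster Tg and Ndufv1, a core subunit of complex I, was at 0.11 (adjusted p = 0.25). So 3 of 4 members with a match were called lower in cluster Tg, against 16.1% of all tested genes with a match and 12.2% of members without. In miR-23 Tg 1 of the 4 was called lower, Ndufs4, against 2.53% of all tested genes with a match and 1.83% of those without. Of the 1659 tested genes with a match, 42 were called lower and 43 higher in miR-23 Tg. Their median log2 fold change was 0.031, against 0.0058 for genes without a match. A match is a description of the letters and no evidence of pairing, and 4 genes are few.

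The other complex I subunits lower in cluster Tg had no miR-23 match. Ndufc2, another membrane arm subunit, was at 49.4, 53.7 and 58.0 RPKM in WT and at 20.6, 28.8 and 40.8 RPKM in cluster Tg (-0.87 ± 0.17, adjusted p = 0.00279). It was at 33.7 and 32.3 RPKM in miR-27 Tg replicates 1 and 2, with -0.68 ± 0.19 (adjusted p = 0.0256). Ndufa6, Ndufa10 and Ndufv3 fell by less, by 0.42, 0.36 and 0.30 on the log2 scale. Higher were Ndufs1, the large iron-sulfur core subunit, with 36.1, 38.1 and 37.9 RPKM in WT and 49.6, 43.3 and 48.6 RPKM in cluster Tg (0.33 ± 0.06, adjusted p = 0.00227), and by 0.29 each the small subunits Ndufb6 and Ndufa1. Of 7 core subunits 1 was called, Ndufs1, and of 30 tested accessory subunits 8 were, 2 higher and 6 lower, where 29.1% of all genes were called. The difference between these groups was not tested. Among the 7 assembly factors Ndufaf3 was higher (0.32), and Ndufaf4 and Ndufaf5 lower (-0.34 and -0.24).

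Complex II had 0 of 4 genes called in cluster Tg, with fold changes from -0.16 for Sdha to 0.21 for Sdhd. In complex III 3 of 9 were called. Of all tested genes 29.1% were called in this comparison. Uqcr11, a small subunit, was higher, at 62.2, 62.1 and 71.9 RPKM in cluster Tg against 40.4, 50.4 and 44.7 RPKM in WT (0.53 ± 0.09, adjusted p = 0.00110). Uqcrfs1, the Rieske iron-sulfur protein that passes electrons to cytochrome c1, was lower, at 47.8, 58.5 and 63.2 RPKM against 79.1, 90.4 and 75.9 RPKM (-0.53 ± 0.11, adjusted p = 0.00325). Uqcrh was lower by a smaller step (-0.39, adjusted p = 0.0153). Cyc1, cytochrome c1, did not pass, at 81.0 to 94.4 RPKM against 79.3 to 89.97 RPKM in WT. The Uqcrfs1 match to miR-23 lies at chr13:30540583-30540605 (minus), but in miR-23 Tg this gene was at 70.9 to 85.8 RPKM, overlapping WT, with a fold change of -0.07.
Uqcrfs1, miR-23: caaacattAATGTGAagtaattg

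In complex IV 3 of 13 tested genes were called in cluster Tg, all lower. Of all tested genes 29.1% were called there, and 13.5% were called lower. Cox7a2l was at 100.8, 124.5 and 152.7 RPKM against 192.1, 208.3 and 200.7 RPKM in WT (-0.68 ± 0.12, adjusted p = 0.00113). It carries a miR-24 match, at chr17:83502381-83502403 (minus), and stood at 157.1, 161.7 and 158.4 RPKM in miR-24 Tg, all below WT, with a fold change of -0.33 that missed the threshold (adjusted p = 0.0690).
Cox7a2l, miR-24: aaatgtcaCTGAGCCatcactga
Cox4i1, the main form of the regulatory subunit, was at 308.7, 329.4 and 379.1 RPKM against 435.6, 449.4 and 420.0 RPKM in WT (-0.36 ± 0.08, adjusted p = 0.00563). The testis form Cox6b2 was at 1.00 to 1.46 RPKM against 1.62 to 2.94 RPKM (-0.58, adjusted p = 0.0463). Complex V had 0 of 14 tested genes called, with fold changes from -0.44 for Atp5d to 0.40 for Atp5g1.

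**Figure D4:**
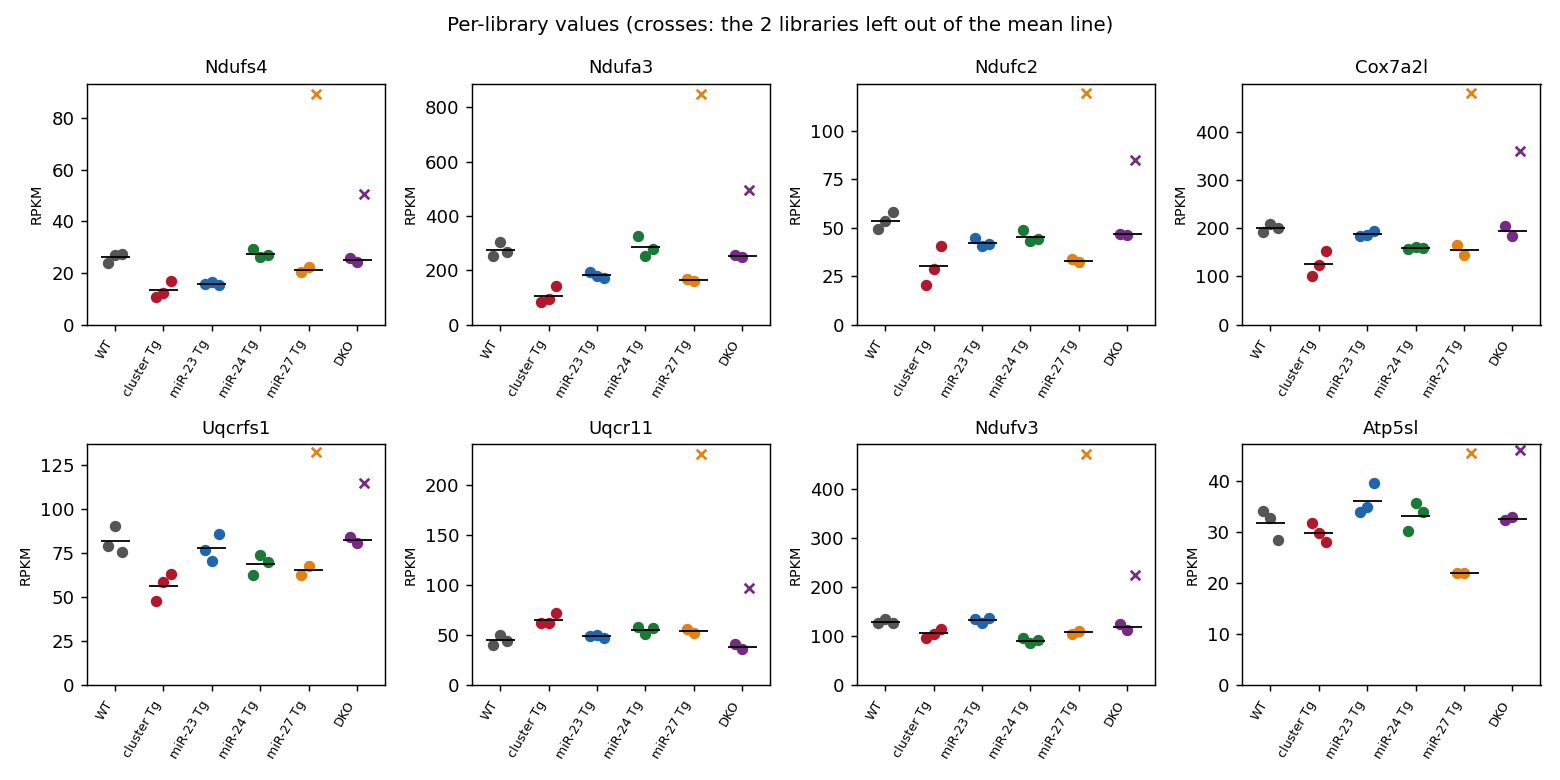
RPKM per library for 8 members by genotype, on linear axes from 0; crosses are miR-27 Tg replicate 3 and DKO replicate 3, and lines are the mean of the other libraries. Ndufs4 is low in cluster Tg and miR-23 Tg, Ndufv3 in miR-24 Tg, and Atp5sl in miR-27 Tg.

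Of the 18 calls in cluster Tg, 9 held in all 16 fits that left out a further library and in the 7 other settings run on 16 libraries: Ndufa3, Ndufs4, Ndufc2, Cox7a2l, Uqcrfs1, Uqcr11, Ndufa10, Ndufs1 and Ndufv3. With the 6 cluster Tg and WT libraries alone 10 members were called, these 9 and Ndufaf3. The call of Uqcrh was lost without cluster Tg replicate 1 or WT replicate 2, and that of Ndufa1 without cluster Tg replicate 3 or WT replicate 1 or 3. That of Ndufaf4 was lost without cluster Tg replicate 2 or 3 or WT replicate 2 or 3. Ndufb6, Cox6b2, Ndufaf5 and Ndufaf3 stayed called in 9, 6, 5 and 2 of 16 such fits.

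Single family members changed fewer genes. In miR-23 Tg the second call beside Ndufs4 was Atp5f1, the b subunit of the stator of ATP synthase, at 49.4, 50.9 and 52.5 RPKM against 62.3, 69.0 and 66.9 RPKM in WT (-0.37 ± 0.09, adjusted p = 0.0442). It stayed called in 4 of 16 fits without a further library, and each miR-23 Tg library ended the call.

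In miR-24 Tg Ndufv3, an accessory subunit at the NADH-binding end, was at 95.9, 86.02 and 92.3 RPKM against 127.8, 134.7 and 128.1 RPKM in WT (-0.51 ± 0.07, adjusted p = 0.000696). The gap between these groups was wider than either range, and the call held in all settings run on 16 libraries, while with 18 libraries the adjusted p was 0.743. It was also lower in cluster Tg (97.3, 104.5 and 115.6 RPKM) and in miR-27 Tg replicates 1 and 2 (105.7 and 111.4 RPKM; -0.26, adjusted p = 0.0330). Ndufv3 holds no match to any of the seeds in its annotated 3′ untranslated region. Uqcr11 was higher (0.30, adjusted p = 0.0372), and Cox4i1 (-0.28, adjusted p = 0.0352) and Sdhb (-0.20, adjusted p = 0.0325) lower. The call of Cox4i1 was lost without any 1 of the 6 miR-24 Tg and WT libraries, that of Sdhb without any miR-24 Tg library or WT replicate 2 or 3, and that of Uqcr11 without replicate 1 or 3 of WT, replicate 1 or 3 of miR-24 Tg or column 3 of miR-23 Tg. Of 7 members with a miR-24 match 0 were called in miR-24 Tg, against 15.02% lower among all tested genes with one.

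In miR-27 Tg the fit has replicates 1 and 2 only. Atp5sl, now named as a factor for assembling the distal membrane arm of complex I, was at 22.13 and 22.11 RPKM against 34.1, 32.7 and 28.5 RPKM in WT (-0.50 ± 0.09, adjusted p = 0.00333). Its call held in all settings run on 16 libraries, and replicate 3 stood at 45.4 RPKM. Sdha was at 80.9 and 81.7 RPKM, and at 86.9 in replicate 3, against 100.1, 103.6 and 106.6 RPKM in WT (-0.34 ± 0.09, adjusted p = 0.0241). It was thus below WT in all 3 miR-27 Tg libraries. Atp5sl and Sdha each hold a miR-27 match, at chr7:25625440-25625462 (plus) and chr13:74322340-74322362 (minus), and 2 of 7 members with a match were called lower against 13.9% of all tested genes with one.
Atp5sl, miR-27: tcctatcaACTGTGAttgatcct
Sdha, miR-27: tacttctcACTGTGAatgtaact
Besides Ndufa3, Ndufc2 and Ndufv3 the other calls were Ndufs6 (-0.44), Ndufa7 (-0.40), Ndufa10 (-0.33) and Sdhc (-0.24), lower, and Ndufb6 (0.33), higher. All calls of miR-27 Tg but that of Atp5sl were lost when replicate 2 was left out, and all but those of Atp5sl and Ndufs6 without replicate 1, each of which leaves 1 miR-27 Tg library that is assumed to vary like the other groups. With all 18 libraries Ndufa3, Ndufs6, Ndufa7, Ndufv3 and Sdhc had fold changes above 0.

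Deletion of both clusters gave no called member. Ndufs4 had a fold change of -0.05 in DKO without replicate 3, Ndufa3 of -0.11, Uqcr11 of -0.21 and Ndufv3 of -0.13, all with adjusted p at 1.0. In cluster Tg against DKO, the widest contrast in cluster dosage, 17 of 86 members were called with 16 libraries (27.6% of all genes), 9 higher (15.1%) and 8 lower (12.5%). Ndufa3 (-1.27 ± 0.18, adjusted p = 0.000445), Ndufs4 (-0.89 ± 0.13, adjusted p = 0.000707), Uqcr11 (0.74 ± 0.10, adjusted p = 0.000367) and Ndufs1 (0.36 ± 0.07, adjusted p = 0.00277) held in all settings run on 16 libraries. With 18 libraries Ndufa3 stayed called, while Ndufs4 was at -1.22 (adjusted p = 0.0795), Ndufs1 at 0.27 (adjusted p = 0.0939) and Uqcr11 at 0.30 (adjusted p = 0.753). Only 2 DKO libraries enter, and 7 members were called without DKO replicate 1.

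The promoters of the members were compared by letters, since nuclear respiratory factors are known to drive many of these genes. RefSeq promoters of 300 bases, 250 before to 50 after the start (GRCm38.p6), matched 71 tested members. The NRF1 motif CGCATGCG stood in 10 of them (14.1%), against 4.76% of 8517 tested genes and 1.87% of all 32851 promoters. The YY1 motif AAGATGGCG stood in 8 (11.3%, against 4.09% and 1.40%), and the GABP motif CCGGAAGT in 5 (7.04%, against 10.4% and 3.89%), each on either strand. Members and tested genes were counted if any of their promoters held the motif. The shares of all promoters count single promoters and are an unlike measure. Examples are shown with the motif in capitals on the gene's strand, from members named above or with high levels, at chr5:108434420-108434468 (minus), chr4:24897951-24897999 (plus), chr7:25619420-25619468 (plus) and chr10:80406859-80406907 (minus).
Atp5k, NRF1: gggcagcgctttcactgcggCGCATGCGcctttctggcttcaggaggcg
Ndufaf4, NRF1: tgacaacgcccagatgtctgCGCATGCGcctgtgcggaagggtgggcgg
Atp5sl, YY1: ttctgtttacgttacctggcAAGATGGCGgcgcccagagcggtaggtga
Uqcr11, GABP: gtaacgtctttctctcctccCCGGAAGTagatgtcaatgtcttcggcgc
Ndufs4 also holds the YY1 letters and Uqcr11 the NRF1 letters. A match is not a bound site.

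Related genes were counted with 16 libraries from lists taken beside the members. For every list below, the shares over all tested genes were 15.6% higher and 13.5% lower in cluster Tg. In miR-24 Tg they were 9.38% and 8.07%. Among transcription regulators of respiratory genes, 0 of 18 were higher and 3 lower in cluster Tg: Pprc1, a PGC-1 family coactivator (-0.43), Myc (-0.29) and the mitochondrial DNA polymerase Polg (-0.29). Myc also fell by 0.46 in miR-27 Tg, by 0.43 in miR-24 Tg and by 0.31 in miR-23 Tg. Among 34 other assembly factors and chaperones 2 were higher and 6 lower in cluster Tg, with Coa3, a complex IV assembly factor, at -0.69 and Cox20, another, at 0.34. Coa3 and Cox20 moved in these directions in miR-24 Tg too (-0.58 and 0.35).

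Of 17 genes of the citric acid cycle and pyruvate dehydrogenase, 2 were higher and 3 lower in cluster Tg, among them the isocitrate dehydrogenase subunits Idh3g (0.31) and Idh3b (-0.34), and Pdha1 (-0.27), which fell further in miR-27 Tg (-0.55). The miR-24 Tg cells had 4 of 17 lower (8.07% of all genes), Ogdh (-0.31), Idh3b (-0.29), Cs (-0.27) and Mdh2 (-0.23). Of 10 inner membrane carriers and ATP synthase partners 1 was called in cluster Tg, the uncoupling protein Ucp2 (0.27), which was also higher in miR-27 Tg (0.78) and lower in miR-24 Tg (-0.42). Mitochondrial import genes were 2 higher and 5 lower of 24, with Tomm70a at -0.41 and Tomm34 at -0.41. The median fold change in cluster Tg was -0.05 for 76 mitochondrial ribosomal protein genes, with 2 higher and 7 lower. It was -0.66 for 81 cytosolic ribosomal protein genes, with 52 lower and 1 higher. In DKO 0 genes of these lists were called apart from 1 cytosolic ribosomal protein gene (0.018% of all genes).

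**Figure D5:**
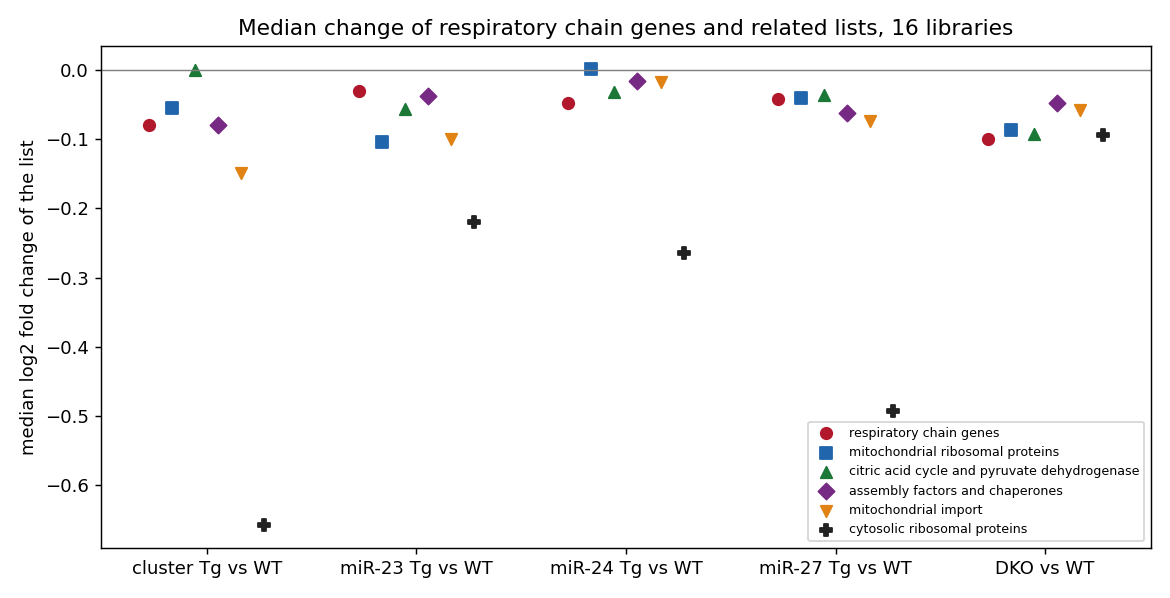
Median log2 fold change against WT in the fit of 16 libraries for the respiratory chain genes and related lists, by genotype. The respiratory chain medians lie between -0.10 and -0.03, while cytosolic ribosomal protein genes reach -0.66 in cluster Tg, and -0.49 for miR-27 alone.

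Other cell states moved with the genotypes. The summed level of 8 naive CD4 T cell markers was similar throughout, at 3068 to 4222 RPKM. The sum of 6 effector or memory markers (Cxcr3, Ccl5, Gzmk, S100a4, S100a6 and Cd44) was 205.8 to 488.5 RPKM in cluster Tg, 100.03 to 315.4 in miR-24 Tg and 112.8 to 538.0 in miR-27 Tg, against 29.0 to 42.7 in WT, 25.4 to 35.3 in miR-23 Tg and 11.7 to 20.2 in DKO. The sum of 7 B cell markers was 16.7 to 35.3 RPKM in cluster Tg, 17.3 to 77.9 in miR-24 Tg and 27.2 to 140.8 in miR-27 Tg, against 4.24 to 5.67 in WT. Of 6 myeloid markers the sums were 22.9 to 34.8 RPKM for cluster Tg and 28.2 to 40.9 for miR-27 Tg, against 10.7 to 20.9 in WT. The miR-24 Tg sums, at 14.96 to 30.8 RPKM, overlapped WT. These markers did not all move together. Itgam was at 9.69 to 16.7 RPKM in cluster Tg against 1.70 to 1.92 in WT. Cd68 was at 5.71 to 11.96 RPKM in cluster Tg against 7.54 to 18.1 in WT. The sum of 4 neutrophil markers was 10.2 to 566.5 RPKM in miR-27 Tg and 2.41 to 97.5 in miR-24 Tg, against 0 to 0.139 in WT, where S100a8 and Elane were listed at 0, and 0 to 0.507 in cluster Tg. The 2 CD8 T cell markers summed to 32.7 to 50.3 RPKM in cluster Tg, 29.7 to 46.5 in miR-24 Tg, 31.9 to 78.8 in miR-27 Tg and 7.95 to 12.3 in miR-23 Tg, against 17.5 to 20.6 in WT. The 4 NK cell markers summed to 2.45 to 2.93 RPKM in cluster Tg, 2.23 to 11.04 in miR-24 Tg and 3.93 to 12.7 in miR-27 Tg, against 0.652 to 1.72 in WT. The 5 erythroid markers reached 361.4 RPKM in miR-27 Tg and 77.2 in miR-24 Tg, against 1.07 to 29.8 in WT. Regulatory T cell markers (3 genes) summed to 14.2 to 23.6 RPKM in cluster Tg against 5.10 to 5.66 in WT. The part of these cells in the changes of Ndufa3, Ndufc2, Uqcr11 and the others was not tested. In miR-23 Tg the B cell sum was 4.30 to 18.7 RPKM. All these ranges include the libraries set apart above. Replicate 3 gave the highest miR-27 Tg sum for the naive, effector or memory, B cell, neutrophil, CD8, NK and erythroid markers, but not for the myeloid ones. S100a8 was at 283.6 RPKM there, against 3.81 and 11.7 RPKM in miR-27 Tg replicates 1 and 2. Hbb-b1 was at 284.7 RPKM there, against 2.83 and 194.6 RPKM. In these bulk libraries fewer cells of a type and less RNA per cell cannot be told apart.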

How the data were processed

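Expression was measured by RNA-seq in 18 libraries. The authors deposited 1 table of RPKM values; the mouse build mm9, HOMER and STAR 2.2.0c appear in the list of tools, per the submitters' processing notes. Gene models, strand use and the counting of shared reads: not given in the sources used here. Of 23953 rows, 2 repeated a symbol and the row of highest mean was kept. The filter asked for 1 RPKM or more in 3 or more of the 18 libraries, and tests were run on log2(RPKM + 1), a scale that understates changes of low genes, with limma 3.58.1 in R 4.3.3 (moderated test with trend, genotype only), and p-values were adjusted over all tested genes by Benjamini-Hochberg. A member was called at an adjusted p under 0.05. The method was tested on simulated data, drawn gene by gene with the spread of the 16 libraries. No simulated library had a shift with transcript length, so that test does not cover the pair set apart. Members and lists were chosen with earlier results of these data known.

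Named are members called against WT (up to 12 per comparison by size of change), the most abundant of each complex, the Sdh genes, Cycs, tissue forms, and up to 4 called genes per related list and comparison; genes beyond these were chosen after their values were seen. Transcript lengths, 3′ untranslated regions and shared 50-mers came from GENCODE vM21 (GRCm38), not the authors' build, and no coordinates were converted. A length was found for 99.23% of tested genes and for 94 of 94 members. Mitochondrially encoded subunits were not analysed here, and 1 named gene's results are not reported here. Same-numbered libraries were checked for pairing and all alternatives are in the closing section.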

Additional observations from a re-analysis of the deposited data

How the results depend on the processing

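With all 18 libraries the counts of called members depended on the pair of libraries. The share of all genes called moved as well, in cluster Tg from 8.48% to 29.1% without the pair. Shares under the other alternatives, here and above, are not given. A moved count there may therefore follow the call rate of all genes. In cluster Tg against WT the count went from 0 to 2 with no filter on low values, 2 with quantile normalisation, 4 with the transcript length trend taken out, 10 with only the libraries compared and 18 without that pair, and leaving out single libraries gave 0 to 7, the highest without miR-27 Tg replicate 3. In miR-23 Tg it became 2 without the pair, and the median, -0.03, became 0.01 (0.00589) with the length trend taken out. In miR-24 Tg it became 1 with no filter, 2 with only the libraries compared and 4 without the pair. In miR-27 Tg it became 1 with no filter, 1 with quantile normalisation, 2 with the length trend taken out, 10 without the pair, and 0 to 1 without single libraries. In cluster Tg against DKO the count of 1 became 0 with no filter, 3 with quantile normalisation, 6 with the length trend taken out, 17 without the pair, and 0 to 11 without single libraries. The F test's 0 became 1, 2, 8 and 23 under the same settings, and 0 to 9 without single libraries.

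In miR-27 Tg against WT some members turned sign when the pair was left out: Ndufa3 to -0.72, Ndufs6 to -0.44, Ndufa7 to -0.40, Ndufv3 to -0.26 and Sdhc to -0.24. With quantile normalisation of 18 libraries Ndufa3 turned to -0.23, Ndufa7 to -0.21 and Sdhc to -0.12.

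With 16 libraries, alternatives chosen after seeing the data gave these counts. Cluster Tg against WT kept 10 of 18 with only the libraries compared. MiR-23 Tg, at 2, had 1 with no filter, 1 with quantile normalisation, 0 with only the libraries compared and 0 to 4 without single libraries. MiR-24 Tg, at 4, had 2 with quantile normalisation, 7 with the length trend taken out, 2 with only the libraries compared and 1 to 7 without single libraries. MiR-27 Tg, at 10, had 2 to 14 without single libraries, and its median ran from -0.0958 to -0.0115. Cluster Tg against DKO, at 17, had 6 with only the libraries compared and 7 to 18 without single libraries. The cause of these moves was not tested beyond the smaller number of libraries.

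The labels do not say what a replicate number marks, and the pairing rule (every pair over 0.1) was not met over all genotypes: over 30 pairs of same-numbered libraries of 5 genotypes the deviations from the group means correlated at -0.111 to 0.580 (median 0.081), with 11 over 0.1. The 3 miR-27 Tg and DKO pairs were at 0.214, 0.286 and 0.580. With a replicate block the 18-library counts were unchanged and the miR-23 Tg median, then resting on 1 numbered library, became 0.124. With the block and 16 libraries the counts were 13 in cluster Tg, 0 in miR-23 Tg, 2 in miR-24 Tg, 4 in miR-27 Tg, 0 in DKO, 12 in cluster Tg against DKO and 16 in the F test. Absolute depth is unknown, so no counting error is given.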
